A study of Mus musculus with 4 samples.

Results

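The newborn heart without miR-1 was described from 2 of the 4 libraries of the series, both made from whole mouse hearts at postnatal day 2.5 (P2.5). One library came from a heart without miR-1-2 and without miR-1-1, labelled dKO for double knockout, and the other from the control genotype labelled dHET. Both animals were of the Sv129 strain. The header of the deposited P2.5 table names the dHET column hetero and the dKO column homo for miR-1, so the control is not a wild type. Whether a library holds 1 heart or a pool, and how the alleles were made, is not given in the sources used here. The other 2 libraries, a dKO and a dHET heart at embryonic day 15.5 (E15.5), are used below only to set their values beside those at P2.5. Poly-A RNA was read from a single end at P2.5, and each gene has a deposited level in FPKM, fragments per kilobase of transcript and per 1000000 fragments.

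With 1 library per genotype there is no replicate error and no p-value, and each value below is a difference between 2 libraries. A gene was counted if its row was flagged usable and its level was at least 5 FPKM in either library. This kept 8197 of 22552 rows, and 14180 usable rows lay under 5 FPKM in both libraries. At the edge of the filter, Slc39a6 (4.75 FPKM in dHET, 5.001 in dKO) was kept and D11Wsu47e (4.01 and 4.999) was not. The change of a gene is log2 of (dKO FPKM + 1) over (dHET FPKM + 1). "Higher" and "lower" mean at least 1.5-fold apart on this scale, which understates the change of low genes.

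The microRNA miR-1 is made in heart and skeletal muscle from a pair of gene copies with the same mature product. A microRNA guides Argonaute to messenger RNAs that pair, usually in the 3' UTR, with its seed, the bases from position 2 to 8 of its 5' end. The paired messenger RNA is then degraded or translated less. In muscle, miR-1 is switched on by SRF, MEF2 and myocardin, and it is known for restraining growth, smooth muscle and conduction genes in the developing heart.

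The sequences below show the seed that the target search used. The first belongs to miR-206, a skeletal muscle microRNA of the same seed family as miR-1, and the others to heart muscle microRNAs whose words served for comparison. They are the mature sequences of RefSeq on GRCm38.p6, 5′ to 3′, with the seed in capitals.
miR-206-3p: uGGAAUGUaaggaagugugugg
miR-133b-3p: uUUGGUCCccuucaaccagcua
miR-499-5p: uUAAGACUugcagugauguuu
miR-208a-3p: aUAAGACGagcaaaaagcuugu
The DNA word that pairs with the miR-1 family seed is ACATTCC. It was searched on the sense strand of the longest annotated 3' UTR of each gene, on the mm9 assembly.

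Of the 283 higher genes with an annotated 3' UTR, 65 held that word. The stretches below are 30 bases each around the word, in capitals, with a following A in capitals where the match extends to 8 bases. They are examples chosen after their values were seen, each from a gene that was higher in dKO.
Bex4, chrX:132674886-132674915: atttaattcaaACATTCCtgttagcatggc
Slc8a2, chr7:16745100-16745129: cactacttctgACATTCCAgcgccctactc
Tpm2, chr4:43527816-43527845: agtgtctcctaACATTCCtaacatggtttt
Sri, chr5:8067578-8067607: gaatatattcaACATTCCAactggaactcg
Srsf9, chr5:115782783-115782812: gctcagagtctACATTCCAgattgattaga
Coro1c, chr5:114295276-114295305: gaagcacgggtACATTCCAggcaagaacag
Mmd, chr11:90138776-90138805: gcaaacggtcaACATTCCAcgaacaaacat
Twf1, chr15:94408590-94408619: gaagtcaatgcACATTCCAgaatatagatg
Tmsb4x, chrX:163645386-163645415: atatgcactgtACATTCCAcgagcattgcc
Gja1, chr10:56108967-56108996: cccgctaaaaaACATTCCAgtgtttaaaaa
Myocd, chr11:64990983-64991012: gatgtcatttaACATTCCgagaaagaaata
A match of these letters is a description of the sequence and not proof of a site in use.

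More genes were higher than lower in the dKO library. Of the 8197 counted genes, 294 (3.59%) were higher and 94 (1.15%) were lower. Of the higher genes 69 reached 5 FPKM only in dKO, and of the lower genes 35 only in dHET, in each case the library where they are high. How the genes divide turns on the scaling: 75.8% of the genes past 1.5-fold were on the higher side as deposited, 52.8% after centring on the median, and 32.3% after scaling both libraries to the same FPKM sum. The scaling totals recovered from low values were 44.6 for dHET and 49.9 for dKO, in units of 1000000 fragments, and the counted genes had medians of 1791 and 2086 reads. The median change of all counted genes was 0.083, and 66.7% of them lay within 1.2-fold. Lists of genes are therefore described by how many members lay above that median. Counts of higher and lower list members are to be read against 3.59% and 1.15% of all counted genes.

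The pair of libraries differed in other ways than the genotype. Xist, the X-inactivation transcript, had 0.101 FPKM in the dHET library against 50.7 in the dKO library. Y-linked genes were the other way round. Ddx3y had 11.7 FPKM in dHET and was listed at 0 in dKO, and Eif2s3y had 36.1 and 0.0113. The genotype and this male against female pattern cannot be told apart at P2.5. At E15.5 both libraries had the male pattern, with Xist at no more than 0.113 FPKM and Ddx3y at 15.3 and 14.8. The 233 counted X-linked genes had a median change of -0.010 against 0.085 for the 7962 autosomal genes. Of the X-linked genes 13 (5.58%) were higher and 3 (1.29%) lower, against 3.53% and 1.12% of the autosomal genes. Kdm5c, an X-linked demethylase gene that escapes inactivation, had 15.4 FPKM in dHET and 28.1 in dKO. The change also went with base composition: over 8076 genes its Pearson correlation with transcript GC content was 0.356, described across genes that share the 2 libraries. In the quartile of lowest GC 22 genes were higher and 34 lower, and in the highest quartile 137 were higher and 12 lower. The part of GC content in the gene results was not tested. List medians after a linear fit on GC content and length are given beside several lists below. Among the other lists described, the fit turned the side of the all-gene median for fatty acid oxidation (0.012 to -0.046), pericyte and mural markers (0.027 to -0.028) and the natriuretic peptide axis (0.041 to -0.0050). It left described miR-1 targets at 0.19, glycolysis at 0.12 and fibroblast markers at -0.38 relative to all genes, from 0.22, 0.16 and -0.26.

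The libraries had the levels of a heart. Myl2, the ventricular light chain, had the highest levels shown, at 7059 FPKM in dHET and 8550 in dKO. The 10 lung markers summed to 0.0852 FPKM (dHET) and 0.229 FPKM (dKO), and those of thymus, also 10, to 1.81 and 0.552. Of 16 skeletal muscle markers 14 lay under 1 FPKM in both libraries. Ckm, which heart muscle also expresses, made up nearly the whole of the list's sum of 1090 FPKM in dHET and 1437 in dKO. Myh6, the adult atrial and ventricular myosin heavy chain, had 2270 FPKM in dHET and was listed at 0 in dKO under a flag for too much data, so it was not used.

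**Figure D1:**
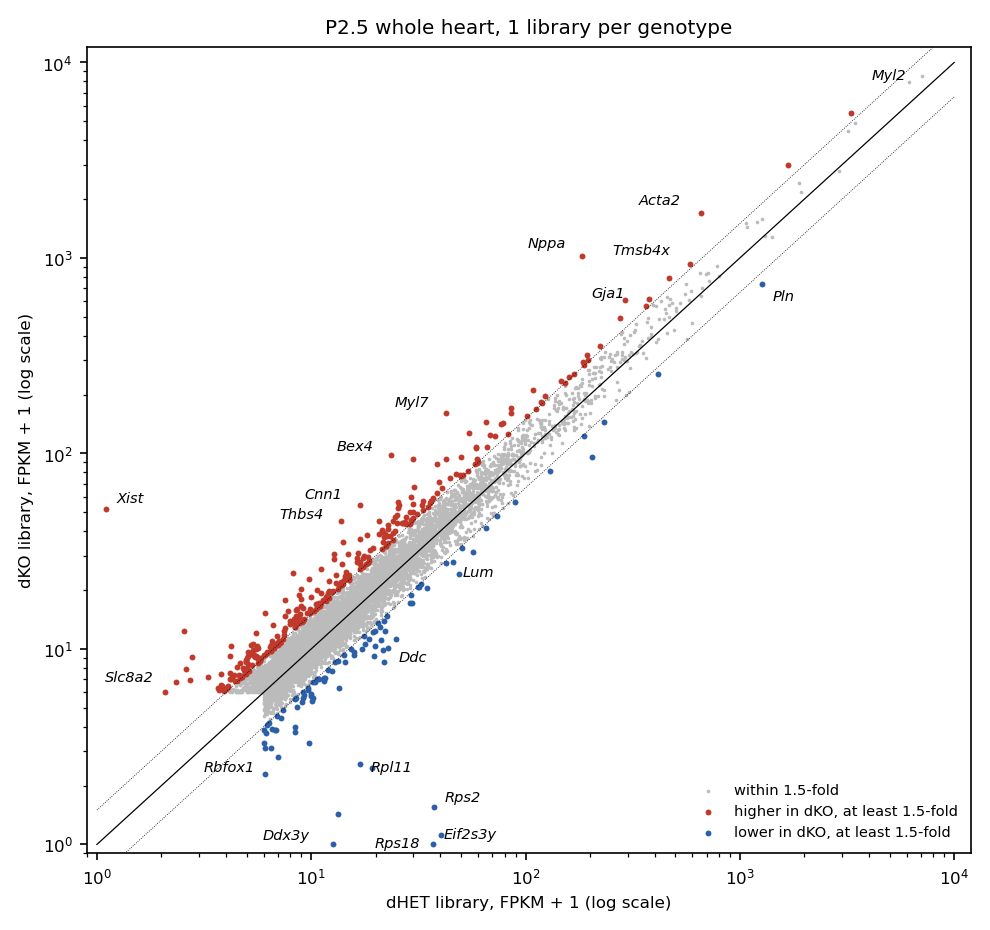
Level of each of the 8197 counted genes in the dHET library (x axis) and the dKO library (y axis), both as FPKM + 1 on log scales, with 1 library per axis. Red points are the 294 higher genes and blue points the 94 lower genes. The solid line marks equal levels and the dotted lines 1.5-fold, and Nppa, Acta2 and Myl7 stand well above it among abundant genes.

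Several genes of the atrial chamber were higher in the dKO library. Nppa (chr4:147374855-147376176, mm9), the gene of the hormone atrial natriuretic peptide, stood at 182 FPKM in dHET against 1021 in dKO. That is a 5.58-fold difference, or a change of 2.48. Myl7 and Myl4, the atrial regulatory and essential light chains of myosin, had 41.7 and 161 FPKM, and 29.0 and 66.0. Sln, whose product sarcolipin inhibits the calcium pump in atrial muscle, had 1.08 and 5.01. Sln reached the filter of 5 FPKM only in dKO, the library where it is high. All 4 were higher in dKO. Of 17 atrial genes listed, 11 were counted, 4 were higher and 0 lower against 3.59% and 1.15% of all counted genes, and the median was 0.24 (0.19 above that of all genes after the GC and length fit).

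The natriuretic peptides did not move as a pair. Nppb, which encodes brain natriuretic peptide, had 60.9 FPKM in dHET against 65.0 in dKO, a change of 0.09, close to the median of all genes. Corin, the protease that activates the atrial peptide precursor, had 17.5 and 11.8 FPKM (-0.53). Ide, the gene of insulin-degrading enzyme, had 28.1 and 18.0 and was lower. The receptor genes Npr1 and Npr2 had changes of 0.24 and 0.16. At E15.5 Nppa had 775 FPKM in dHET and 1297 in dKO (0.74), and Nppb had 54.1 and 64.7 (0.25).

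Ventricular chamber genes lay on both sides. All 12 listed genes were counted, 0 were higher and 2 were lower, against 3.59% and 1.15% of all genes. Pln, whose product phospholamban restrains the calcium pump SERCA2, had 1266 FPKM in dHET and 731 in dKO (-0.79). Mpped2 had 9.38 and 5.81. Myl3 and Myl2, the ventricular light chains, had changes of 0.51 and 0.28, and Myh7, the fetal ventricular myosin, had 595 and 464 FPKM (-0.36). A whole heart holds atria and ventricles, and in bulk RNA more cells of a type and more RNA per cell cannot be told apart.

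Smooth muscle contractile genes lay mostly on the higher side. Acta2 (chr19:34315581-34329826), smooth muscle actin, had 658 FPKM in dHET against 1692 in dKO, a 2.57-fold difference. Cnn1, calponin, had 15.9 and 53.5 FPKM, and Myl6, a non-muscle and smooth muscle light chain, 53.5 and 127. Tpm2, the beta tropomyosin gene, had 37.8 and 87.8, and Myl9, the smooth muscle regulatory light chain, 464 and 792. Of 24 listed genes 21 were counted, these 5 were higher, 0 were lower, and 17 lay above the median of all genes. Of all counted genes 3.59% were higher and 1.15% lower. The list median was 0.37, which is 0.29 above that of all genes, and 0.26 above it after the GC and length fit. Tagln and Smtn, also genes of contractile smooth muscle, had changes of -0.090 and -0.017, and the smooth muscle myosin Myh11 had 4.30 and 6.41 FPKM. Myh11 and Mylk (4.71 and 6.56 FPKM), both among the 17, reached the filter only in dKO, where they are high.

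Pericytes and other mural cells surround the vessels. Of 10 pericyte and mural markers 8 were counted and none was past 1.5-fold, a count near the shares of all genes (3.59% and 1.15%), and the markers summed to 262 FPKM in dHET and 255 in dKO. Rgs5 had 58.8 FPKM in dHET with a change of -0.17, and Abcc9 had 68.0 and 48.4 FPKM. At E15.5 Acta2 had 692 and 1215 FPKM (0.81) and Myl6 had 38.8 and 77.7 (0.98), both again higher in dKO. Cnn1 and Tpm2 had E15.5 changes of 0.41 and 0.21, under 1.5-fold.

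**Figure D2:**
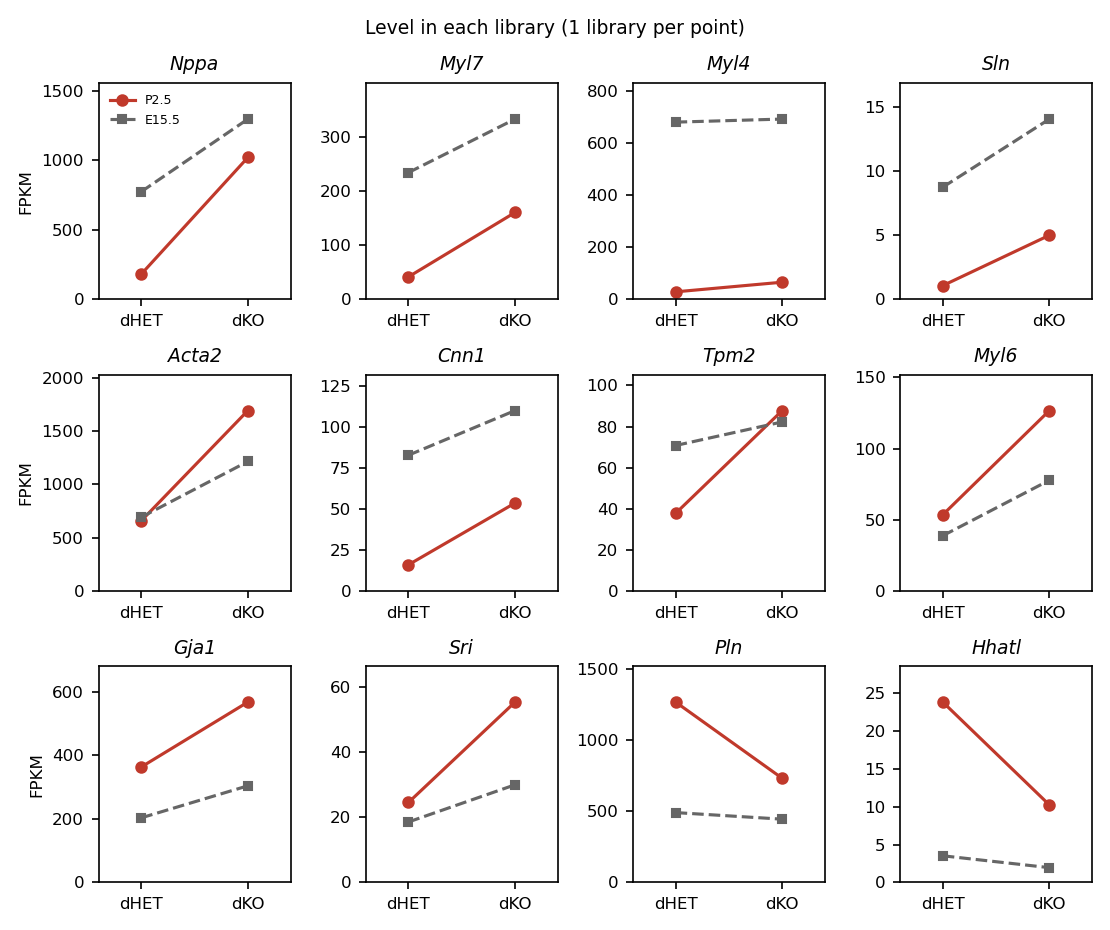
Level in FPKM (y axis, from 0, with its own scale in each panel) of 12 genes in the dHET and dKO libraries (x axis), with 1 library per point. Red circles are P2.5 and grey squares E15.5, which was normalised separately, so only the slope within a stage is compared. Nppa goes from 182 to 1021 FPKM at P2.5, while Pln goes from 1266 to 731.

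The regulators of these contractile genes had smaller differences. Myocd, the gene of myocardin, which drives smooth and heart muscle genes through SRF, had 21.7 FPKM in dHET and 33.9 in dKO and was higher (0.62). Srf itself had 44.3 and 39.3 (-0.17). Mef2a, a muscle transcription factor gene, had 72.8 and 46.6 and was lower (-0.63), and Mef2d had 37.3 and 30.1. Klf4, which represses smooth muscle genes, had 13.7 and 9.37. Of the 17 genes listed for myocardin and SRF regulation 15 were counted, with 1 higher and 1 lower and only Fhl2 and Myocd above the median of all genes.

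SRF binds the CArG box, and the RefSeq promoters (250 bases before to 50 after the gene start, GRCm38.p6) were searched for it on both strands. Only the strict form was sought, CC and GG around a core of A and T alone. It was in 1.81% of the 27025 promoters of the table and in 1.86% of the 6565 counted genes with a promoter there. Of the 19 smooth muscle genes with a promoter there, 4 held it. Other muscle lists held it as well. Among genes with a promoter there, 3 of 12 of the thin filament (13 counted) and 3 of 16 of the fetal programme (18 counted) held it. For the thick filament (3 of 10, 13 counted) and atrial genes (1 of 7, 11 counted) the coverage is too low, and the check is void. A box was in 11 of 232 promoters of higher genes (4.74%) and 1 of 68 of lower genes (1.47%). These stand for 294 and 94 genes, a coverage also too low for this check, which is void for both. The promoters of Myl9 and Myl7 are shown as examples of higher genes with a box, in capitals, which starts 161 and 61 bases before the gene start.
Myl9, chr2:156775214-156775513, + strand: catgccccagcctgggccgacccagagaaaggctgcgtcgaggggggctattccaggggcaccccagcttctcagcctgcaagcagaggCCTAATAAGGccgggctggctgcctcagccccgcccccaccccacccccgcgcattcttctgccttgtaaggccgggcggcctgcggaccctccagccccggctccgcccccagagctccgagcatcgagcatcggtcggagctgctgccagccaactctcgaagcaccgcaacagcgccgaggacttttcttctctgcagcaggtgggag
Myl7, chr11:5898733-5899032, - strand: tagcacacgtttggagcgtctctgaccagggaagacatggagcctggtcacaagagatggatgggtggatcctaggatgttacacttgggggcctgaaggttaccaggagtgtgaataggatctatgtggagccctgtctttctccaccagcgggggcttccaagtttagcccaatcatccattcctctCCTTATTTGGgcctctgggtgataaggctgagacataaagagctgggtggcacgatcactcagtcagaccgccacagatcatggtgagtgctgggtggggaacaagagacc
Of 2 promoters listed for Myl6, 1 held a box, 50 bases before the start. The windows of Acta2, Cnn1, Nppa, Tpm2 and Myl4 held no such letters. This says nothing of boxes elsewhere, or of boxes in these windows with another base in the core.

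Among sarcomere genes the thin filament had 3 higher members of 13 counted (18 listed), against 3.59% of all genes. Tnnc1 and Tnnt2, cardiac troponins C and T, had 1685 FPKM in dHET and 2996 in dKO, and 3314 and 5545, and Tpm2 is given above. Lmod2, a leiomodin that sets filament length, had the lowest change at -0.40. After the GC and length fit the list median was -0.053 relative to all genes, against 0.095 without it, so its side of the median depends on that fit. In the thick filament Myl7 and Myl4 were higher among 13 counted of 18 listed, and Myom2, an M-band protein gene, had 132 and 100 FPKM. At the Z-disc 20 of 24 listed genes were counted and 2 were lower, Murc (14.8 and 8.60 FPKM) and Synpo2l (88.4 and 55.7), with a list median of 0.029. At E15.5 Tnnc1 and Tnnt2 had changes of 0.05 and 0.00.

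Calcium cycling genes lay on both sides. Sri, which encodes the calcium-binding protein sorcin, had 24.5 FPKM in dHET and 55.3 in dKO. The calsequestrins, calcium buffers of the sarcoplasmic reticulum, were both higher: Casq1 had 15.8 and 35.5 and Casq2 had 276 and 493 FPKM. S100a1, a calcium sensor gene, had 118 and 181. On the lower side were Pln and Hhatl, an endoplasmic reticulum protein gene, with 23.8 and 10.2 FPKM. Of 28 listed genes 25 were counted, 5 were higher, 2 lower and 11 above the median of all genes. The 5 include Sln, which reached the filter only in dKO. Of all counted genes 3.59% were higher and 1.15% lower. The list median relative to all genes was -0.035, and 0.078 after the GC and length fit. The pump gene Atp2a2 had 1417 and 1284 FPKM and the release channel gene Ryr2 88.6 and 87.8, both within 1.2-fold. Slc8a2, a sodium-calcium exchanger gene that is not on the list, had 1.34 and 5.80 FPKM, and its heart paralog Slc8a1 had 55.6 and 72.9.

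Gja1, the gap junction gene of connexin 43 and a described target of miR-1, had 363 FPKM in dHET and 567 in dKO (1.56-fold). It was the only higher member among 18 counted genes of the intercalated disc, of which 14 lay at or below the median of all genes. Cdh2, the N-cadherin gene, had 76.7 and 54.7 FPKM, and Nrap had 56.4 and 40.1. None of the 13 counted potassium channel genes was past 1.5-fold, which is near the shares of all genes, 3.59% and 1.15%. Kcnj2, an inward rectifier gene described as a miR-1 target, had 7.84 and 5.87 FPKM (-0.36). At E15.5 Gja1 had 203 and 304 FPKM (0.58), on the same side.

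Transcription factors of the heart lay near the median. Of 30 listed 23 were counted, with Irx3 higher (13.3 FPKM in dHET, 22.7 in dKO), Mef2a lower, and 10 above the median of all genes. Hand2, a transcription factor gene of the growing ventricle and a described miR-1 target, had 43.8 and 58.8 FPKM (0.42), with 28.8 and 28.3 at E15.5. Irx5, a homeobox repressor of potassium channel genes, had 6.87 and 9.56 (0.42). Hdac4 lay under the filter at 3.10 and 2.92 FPKM. Esrrb, an estrogen-related receptor gene, had 3.18 and 6.55 FPKM and was higher (0.85), while Esrrg had 7.64 and 5.82. Mib1, whose gene spans the miR-1-2 locus, had 9.60 and 9.75.

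Described miR-1 targets were taken as a list of 52 genes, drawn up from general knowledge with earlier results of these data known, so their direction is not independent evidence. Of these 46 were counted, 8 were higher and 1 lower, against 3.59% and 1.15% of all counted genes. Their median was 0.30, with 30 above the median of all genes. Srsf9, a splicing factor gene, led with 17.1 FPKM in dHET and 37.3 in dKO. Coro1c, a coronin that binds actin, had 24.0 and 47.4, and Mmd, a membrane protein gene, 49.0 and 95.4. Twf1 (10.9 and 18.2 FPKM) and Tmsb4x (581 and 936 FPKM) encode actin monomer-binding proteins. Together with Gja1, Myocd and Esrrb these are the 8. Esrrb (3.18 and 6.55 FPKM) reached the filter only in dKO, where it is high. So did G6pdx (3.67 and 5.53 FPKM), which is among the 46 but within 1.5-fold.

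The described targets were then divided by the site search. Of 45 described targets with an annotated 3' UTR, 26 held the word and 7 of those were higher and 0 lower, with a median of 0.39. The 19 without it had a median of 0.22, with Esrrb higher and Mef2a lower. The counts above the median of all genes were alike, at 17 of 26 with the word and 12 of 19 without. Coro1c held the word 3 times, each as an 8-base match, and Gja1 held it in 2 places. Hand2, Irx5 and Irx4 held no match in the annotated 3' UTR. Of the 26 carriers 8 had a change below 0, the lowest being Thbs1 (-0.45), Igf1 (-0.37) and Kcnj2, none of them past 1.5-fold.

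Across all genes the carriers of the word were more often past 1.5-fold on the higher side. Of 8035 counted genes with an annotated 3' UTR, 858 held it, and 65 of these (7.58%) were higher against 218 of 7177 without it (3.04%). Of the 65, 21 reached the filter only in dKO. On the lower side were 8 carriers (0.932%) and 75 others (1.05%). The share on the higher side was 13.3% (12 of 90) with 2 or more matches and 10.3% (33 of 321) with an 8-base match. The words of miR-133, miR-499 and miR-208a gave 3.83%, 1.85% and 3.85% of their carriers on the higher side, against 3.49%, 3.70% and 3.52% without them. In all, 22.97% of higher genes with a 3' UTR held the miR-1 word, 9.64% of lower genes, and 9.31% of the 18676 genes with a usable row and a 3' UTR.

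The difference lay in the upper tail and not in the middle of the carriers. The median change was 0.080 with the word and 0.083 without. Carriers had longer 3' UTRs, with a median of 2316 bases against 1041, and lower GC content. Within quartiles of 3' UTR length, a split added after seeing the data, the carriers' median was higher by 0.094, 0.076, 0.064 and 0.049, from the shortest to the longest quartile. The same differences for carriers of the miR-133 word were 0.063, 0.022, 0.045 and 0.052, so a shift of this size in the median was also seen with another word. The share on the higher side was 23.4% with and 6.09% without the word in the shortest quartile, and 4.21% and 0.963% in the longest. After a fit on GC content and length, also added later, the medians differed by 0.057 (0.0525 with the word, -0.0040 without). For the miR-133 word the fitted medians were 0.0031 with and 0.0013 without it. Those for miR-499 were -0.0092 and 0.0028, and for miR-208a -0.032 and 0.0025.

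**Figure D3:**
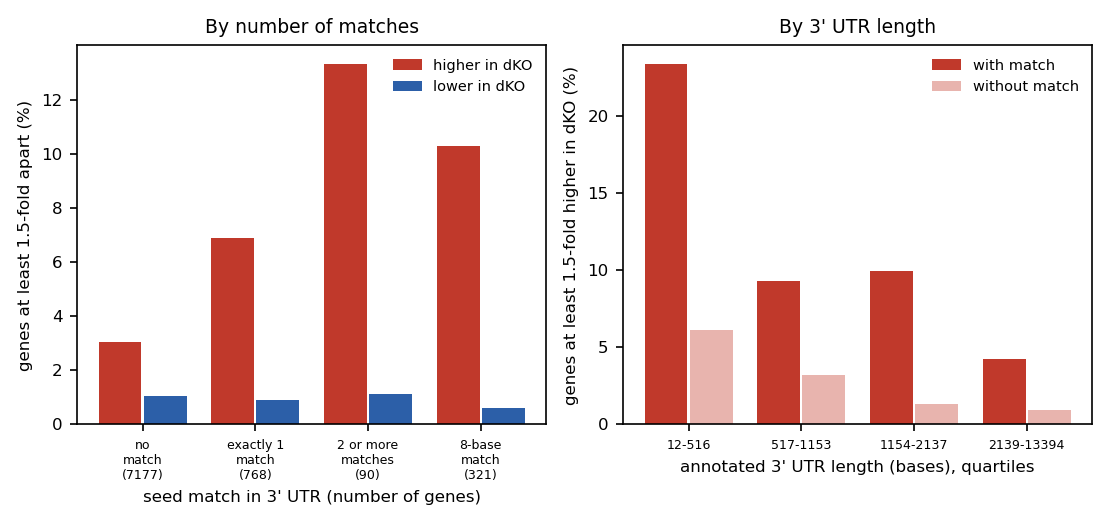
Share of counted genes at least 1.5-fold apart between the P2.5 libraries (y axis, percent, from 0), by number of matches to the miR-1 word (left; the 8-base group overlaps the groups of 1 and of 2 or more matches) and by quartile of 3' UTR length (right, higher genes only). The share on the higher side is 3.04% without a match and 13.3% with 2 or more, and it is larger with the word in all 4 length quartiles.

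The carriers that were higher at P2.5 were then looked up in the E15.5 libraries, which had no part in choosing them. Of the 65 genes, 64 had a change above 0 at E15.5, where 46.3% of the 8308 counted genes lay above 0. Cenpe, a kinetochore kinesin gene, was the exception (11.2 FPKM in dHET, 9.24 in dKO). At least 1.5-fold higher at E15.5 were 14 of the 65 (21.5%), against 0.494% of all genes counted at that stage. The 65 were looked up without the E15.5 filter that this share uses. Of the 217 other higher genes with a 3' UTR and E15.5 values, 174 lay above 0 and 13 (5.99%) were at least 1.5-fold higher. Uhmk1, a kinase gene that acts on splicing factors, had 5.64 FPKM in dHET and 12.3 in dKO in the newborn pair, and 6.43 and 14.3 in the embryo, with changes of 1.00 and 1.04. Bex4, an X-linked gene first found in brain, had 22.5 and 97.3 FPKM in the newborn pair and 43.2 and 95.1 in the embryonic pair. Srsf9 had 22.8 and 43.8 FPKM at E15.5, and Sri 18.5 and 30.0.

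**Figure D4:**
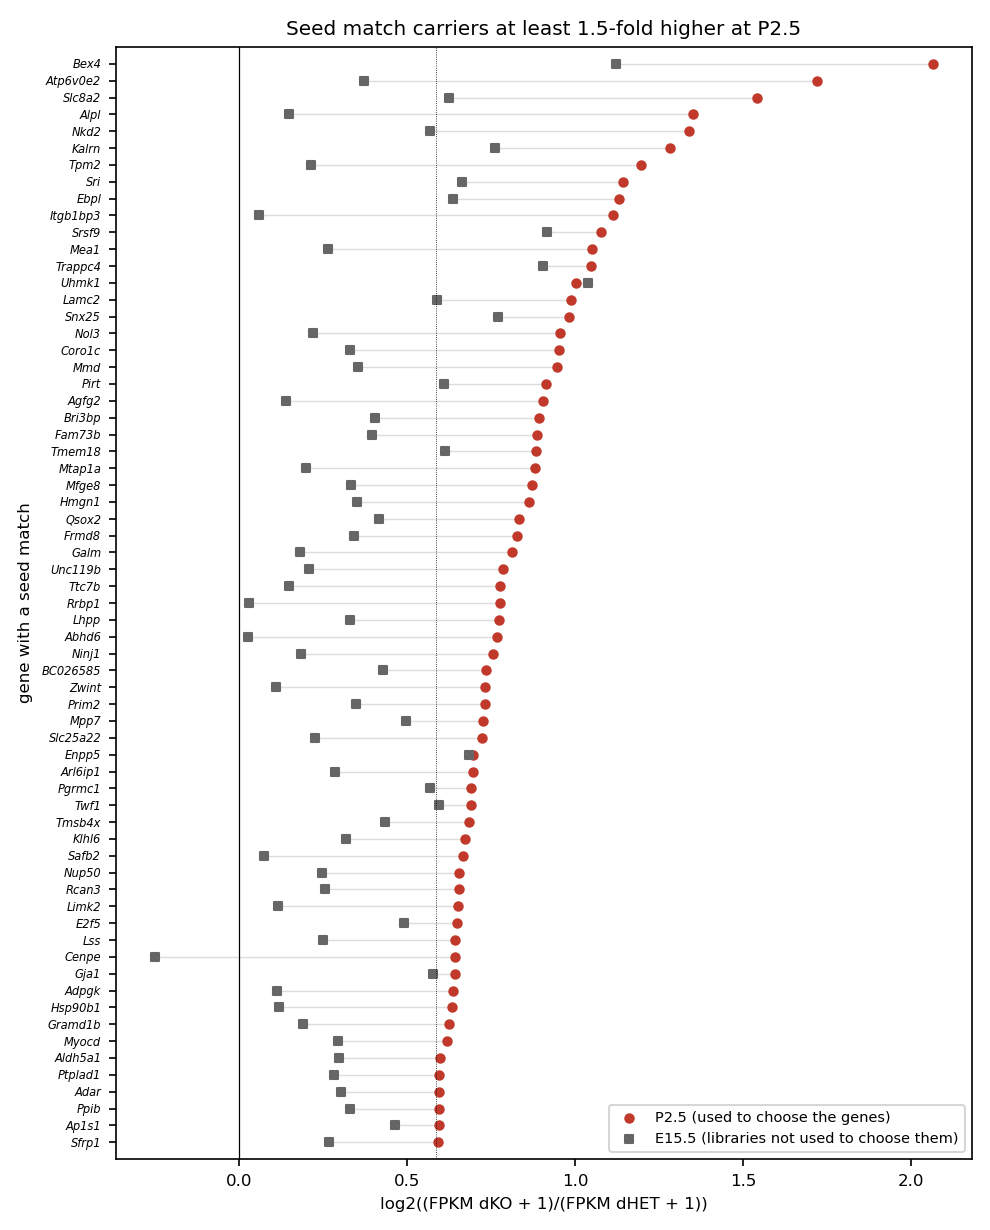
Change (x axis, log2 scale) of the 65 genes with the miR-1 word that were at least 1.5-fold higher at P2.5 (y axis, 1 gene per line, ordered by P2.5 change). Red circles are P2.5, the values that chose the genes, and grey squares E15.5. At E15.5 64 of the 65 squares lie above 0 and Cenpe lies below it, and 14 lie past 1.5-fold, the dotted line.

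Actin turnover genes, which include several described targets, had 30 counted members of 32 listed. Of these 5 were higher and 0 lower, against 3.59% and 1.15% of all genes. The 5 were Coro1c, Twf1, Tmsb4x, Cap1 (36.1 FPKM in dHET, 58.0 in dKO) and Cfl1, the cofilin gene (167 and 253). Among splicing factors of the SR protein family and their kinases, Srsf9 and Uhmk1 were higher and the other 16 of 18 lay within 1.5-fold, from -0.21 to 0.22. The median of that list relative to all genes was -0.052, and 0.063 after the fit. Muscle splicing regulators lay mostly below, with 4 of 16 above the median of all genes. Rbfox1, a splicing regulator of nerve and muscle, had 6.01 and 1.80 FPKM and was lower, and Mbnl1 had 17.0 and 12.2. Rbfox1 and Hnrnpa1 (5.76 and 4.72 FPKM) reached the filter only in dHET, where they are high. At E15.5 Rbfox1 was at 1.23 and 1.10 FPKM.

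In energy metabolism the higher genes were spread over pathways. Of 32 glycolysis and lactate genes 25 were counted, and 4 were higher and 0 lower, against 3.59% and 1.15% of all genes. Slc16a3, the lactate exporter MCT4, had 7.27 FPKM in dHET and 23.5 in dKO, and Pkm2, pyruvate kinase, 193 and 317. Aldoc had 4.36 and 8.30, and Pgam1 had 4.48 and 8.14, and both reached the filter only in dKO. All 34 listed genes of fatty acid oxidation were counted, with a median of 0.095 and 17 above that of all genes. None of them was past 1.5-fold, which is near the shares of all genes, 3.59% and 1.15%. Of 71 respiratory chain and ATP synthase genes 66 were counted, 4 were higher and 2 lower, against 3.59% and 1.15% of all genes. The subunit VIa isoforms of cytochrome oxidase went apart: Cox6a1, the widely expressed form, had 290 and 608 FPKM, and Cox6a2, the heart and skeletal muscle form, 415 and 254. Oxct1, which starts ketone use, had 57.9 and 106 FPKM, and Ckb, the brain creatine kinase, 76.1 and 140.

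Cholesterol synthesis genes lay together on the higher side with small differences. All 16 counted of 22 listed were above 0 and 14 were above the median of all genes, with a list median of 0.38. Pmvk, phosphomevalonate kinase, had 11.1 FPKM in dHET and 21.3 in dKO, and Lss, lanosterol synthase, 2.99 and 5.22. Lss and Mvd (3.40 and 5.19 FPKM) reached the filter of 5 FPKM only in dKO, where they are high. Relative to all genes the median was 0.30, and 0.24 after the GC and length fit. Cell cycle genes had 33 of 41 counted members above the median of all genes, with Cenpe and Cenpa past 1.5-fold. Cenpe (3.39 and 5.85 FPKM) and Bub1 (4.61 and 5.51) reached the filter only in dKO. Ccnd2, the cyclin D2 gene, had 35.3 and 24.9 FPKM. At E15.5 Pmvk had 12.3 and 13.1 FPKM and Cenpa 31.8 and 30.0.

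Extracellular matrix lists lay on different sides. All 14 counted collagen chain genes of 19 listed lay above 0, and 13 above the median of all genes, with a list median of 0.34. Col4a2, a basement membrane chain, was past 1.5-fold with 186 FPKM in dHET and 284 in dKO, and Col4a1 had 278 and 408. Matricellular genes lay on the other side, with 3 of 23 counted (26 listed) above the median of all genes and a list median of -0.38. Lower were Nov (18.9 and 9.31 FPKM), Lum (44.7 and 26.7), Prelp (10.5 and 6.12), Aspn (30.9 and 19.7) and Dcn (187 and 122), of which Lum, Prelp, Aspn and Dcn encode small leucine-rich proteoglycans. Thbs4, a thrombospondin, was the exception with 12.8 and 44.0 FPKM, and 18.4 and 39.1 at E15.5. Relative to all genes the collagen and matricellular medians were 0.26 and -0.46, and 0.23 and -0.37 after the GC and length fit. Elastic fibre genes lay on both sides, with 8 of 18 counted above the median of all genes, 1 higher and 2 lower. Emilin1 had 28.9 and 45.9 FPKM, while Mfap4 had 31.7 and 20.6 and the microfibril gene Mfap5 18.6 and 8.16, with 5.09 and 2.78 at E15.5.

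Fibroblast markers share genes with both matrix lists and were divided in the same way. Of 14 listed 13 were counted, 3 were lower (Mfap5, Lum and Dcn) and 0 higher, against 1.15% and 3.59% of all genes. Col1a1 had 221 FPKM in dHET and 309 in dKO. The fibroblast identity genes Tcf21 and Pdgfra had 24.7 and 20.5, and 12.5 and 10.98. The list's summed level was 1662 FPKM in dHET and 1697 in dKO. Endothelial and endocardial markers had 22 counted of 23 listed. None was past 1.5-fold, which is near the shares of all genes, 3.59% and 1.15%. These markers summed to 1100 and 1355 FPKM, of which Fabp4 made up 429 and 604. Their median relative to all genes was 0.062, and -0.0027 after the GC and length fit. Macrophage and leukocyte markers summed to 66.9 and 56.9 FPKM, with C1qc lower (8.13 and 5.02) and S100a9, a neutrophil gene, higher (3.63 and 7.43). S100a9 reached the filter only in dKO, where it is high. The part of cell composition in the gene results was not tested.

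**Figure D5:**
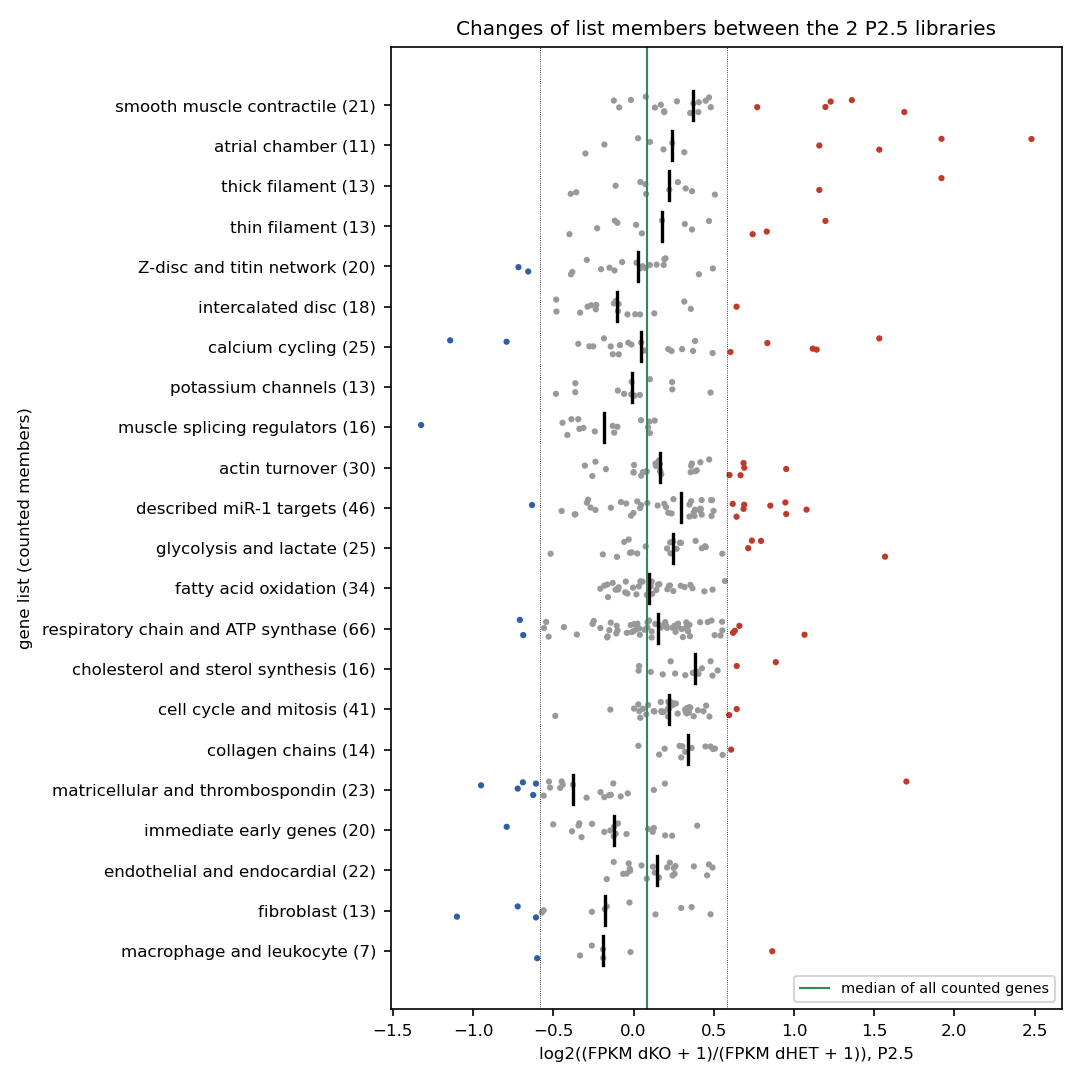
Change (x axis, log2 scale) of each counted member of 22 gene lists (y axis, with the number of counted members) between the 2 P2.5 libraries. Red and blue points are past 1.5-fold on the higher and the lower side, black bars are list medians, and the green line is the median of all counted genes, 0.083. The smooth muscle bar stands at 0.37 and the matricellular bar at -0.38.

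The genes at the extremes were checked against E15.5. Of the 15 highest at P2.5 by the naming rule, 14 had a change above 0 at E15.5, where 46.3% of all genes counted lay above 0. At least 1.5-fold higher at E15.5 were 6, against 0.494% of all genes counted. The 6 were Nppa, Bex4, Thbs4, Acta2, Slc8a2 and Sln. The joint row of Hbb-b1 and Hbb-b2, beta globins whose near-identical copies share reads, was the exception. The 14 include Xist (0.0550 and 0.113 FPKM at E15.5), part of the male against female pattern at P2.5. Xist, Rtn4r (0.438 and 0.909 FPKM at E15.5), Ush1c and Alpl lay under the E15.5 filter that these shares use. At P2.5 Xist, Ush1c, Atp6v0e2, Rtn4r, Slc8a2, Sln and Alpl reached 5 FPKM only in dKO, where they are high. Ush1c, a scaffold protein gene of hair cells, had 1.55 FPKM in the P2.5 dHET library and 11.3 in its dKO partner, and 1.05 and 1.30 at E15.5. Alpl, tissue-nonspecific alkaline phosphatase, had 1.71 and 5.91 FPKM, and 0.860 and 1.06 at E15.5.

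Of the 15 lowest, 12 lay below 0 at E15.5, where 46.3% of all genes counted lay above 0. The 12 include the Y-linked Ddx3y (-0.049) and Eif2s3y (-0.18), and Rps18 (-0.041) and Snhg3 (-0.034). Rmrp (0.25 and 0.17 FPKM) and Hmgn2 (0.72 and 0.51) are also among them. At least 1.5-fold lower at E15.5 were 4, against 0.566% of all genes counted. The 4 were Ddc (21.9 FPKM in dHET, 9.17 in dKO at P2.5), Hhatl, Kbtbd10 (20.6 and 8.83) and Mfap5. Hhatl, at 3.52 and 1.95 FPKM at E15.5, lay under the filter that this share uses. Ddc encodes the decarboxylase that makes dopamine and serotonin, and Kbtbd10 a kelch protein of striated muscle. The lowest autosomal rows were those of Rps18, Rps2, the RNA gene Rmrp, Hmgn2 and Rpl11. Ribosomal protein genes and Hmgn2 are known to have processed pseudogenes that could share reads with them, so these values are uncertain. Rps18 had 39.3 FPKM in dHET and 0.115 in dKO, Rps2 had 36.5 and 0.562, and Rpl11 had 15.9 and 1.59. Rmrp had 12.4 and 0.437 FPKM, and Hmgn2 18.3 and 1.47. Like Ddx3y, Eif2s3y, Snhg3 and Rbfox1, these genes reached 5 FPKM at P2.5 only in dHET, where they are high. At E15.5 Rps18 had 17.9 and 17.3 FPKM and Rpl11 had 9.13 and 8.39. Of 54 cytosolic ribosomal protein genes 39 were counted, with 5 lower and 3 higher, against 1.15% and 3.59% of all genes. The list median was 0.18.

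Of the 8197 counted genes, 42 are called significant in the authors' deposited table, by a test on these 2 libraries and not on the genotypes. In the authors' deposited table Nppa has a log2 fold change of 2.49 with a q-value of 1.46e-10, and Sri has 1.17 with a q-value of 0.00696. In the authors' deposited table Acta2 has 1.36 with a q-value of 0.524 and is not called.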

How the data were processed

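Poly-A RNA of whole hearts was sequenced by the authors, and per the submitters' processing notes TopHat, Bowtie, Cufflinks and the build mm9 were used, with no versions given. The authors' deposited values are FPKM, 1 table per stage. The deposited log2 fold change, p-value and q-value columns are the authors' own, and the P2.5 fold change is dKO over dHET. How the authors scaled libraries, treated multi-mapped reads and used strand is not given in the sources used here.

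Rows displaced by commas in gene names (86) were realigned, and 25 names turned into dates were kept. Rows with status OK (13537) or NOTEST (8840) were used, and 26 other rows with an FPKM of at least 5 were left out. An exact 0 can be a failed estimate. A pseudocount of 1 was added before the log. Of the changes checked, 15956 of 15984 deposited log2 fold changes equal log2 of dKO over dHET within 0.001. Depth was not read from a file: scaling totals were recovered from the commonest value of low genes, and they limit precision by counting error only.

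At E15.5 the table's header says WT for the control and the sample label says dHET, and the column was taken as the only control library of that stage. Stages were normalised separately, so only changes within a stage are compared. Transcript length, GC content and 3' UTRs came from GENCODE M1 on NCBIM37, the assembly of mm9, where 8136 of 8137 matched genes overlapped the deposited positions. Promoters and mature microRNAs came from RefSeq on GRCm38.p6 and are given with that build only.

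The members, the 60 gene lists and the tests were chosen with earlier results of these data known. Genes named were the 15 with the largest positive and negative changes (leaving out predicted genes, clones and short RNA genes), up to 4 per list with the largest absolute change, and a fixed set including Nppa, Myocd, Hand2 and Xist. Other list members were named after their values were seen. Alternatives were other pseudocounts, filters, scalings, folds and status flags, leaving out X and Y, and a linear fit on GC content and length. The calculation was tested on simulated data with Python 3.11.15, numpy 2.4.6 and pandas 2.3.3.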

Additional observations from a re-analysis of the deposited data

Results flagged for a closer look

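Hbb-b2, a beta globin gene, had opposite directions at the 2 stages, lower in dKO in the newborn pair (-1.34) and higher in the embryonic pair (0.80). This difference was not tested, and each stage has 1 library per genotype. Hbb-b1 and Hbb-b2 are near-identical copies that share reads, and their joint row had changes of 1.65 and -0.45.

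Some rows outside the comparison, flagged by the authors as failed or as having too little data, differed by at least 1.5-fold between the P2.5 libraries. Nme3, a nucleoside diphosphate kinase gene, had 16.6 FPKM in dHET and 33.7 in dKO (0.98). The predicted gene Gm5506 had a change of 0.70, the short RNA gene Mir546 of 1.83 and Tgoln2, a Golgi protein gene, of 0.66. Lower in dKO were Per1, a circadian clock gene, with 16.9 and 9.47 FPKM (-0.77), and the short RNA gene Mir686 with 8.11 and 2.07 (-1.57). Myh6, listed at 0 in dKO under another flag, is described above.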

How the results depend on the processing

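The counts of 294 higher and 94 lower genes depend on the settings. Higher genes numbered 140 with a pseudocount of 5, 180 after centring on the median, 153 after scaling each library to an FPKM sum of 1000000, and 43 at 2-fold. Lower genes numbered 38 with a pseudocount of 5, 156 with a filter at FPKM 1, 59 at FPKM 10, 159 with no filter, 161 after centring, 321 after the rescaling and 21 at 2-fold. The rescaling moved the median change of all genes by -0.165. Relative to that median, the interferon list turned from -0.10 to 0.0357 at FPKM 1, 0.39 at FPKM 10 and 0.0231 after the GC and length fit, and the epicardial list from -0.39 to 0.19 at FPKM 10. These lists had 6 and 5 counted members, and the cause was not tested. No named gene past 1.5-fold reversed under the settings run, but many moved by at least 0.1 on the log2 scale. The GC and length fit moved 113 of 211 named genes and the rescaling 201 of 216. Pseudocounts of 5 and 0.1 moved 88 and 31 of 216. The other filters, centring, status flags and leaving out X and Y moved none. No paired analysis was possible because each group has 1 library and no test was made. Counting error is small for most counted genes, with 7 in dHET and 9 in dKO under 100 reads, and the spread between hearts is unknown.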

Other observations

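Antigen presentation genes had 3 higher members among 6 counted of 15 listed, against 3.59% of all counted genes, but 2 of the 3, Tap2 and Cd74, reached the filter of 5 FPKM only in dKO. The list median relative to all genes was 0.51, with 0.29 at a filter of FPKM 10 and 0.22 with no filter. H2-D1 had 28.9 FPKM in dHET and 54.0 in dKO, and Tap2, a peptide transporter gene, 4.81 and 7.99. Cd74, the invariant chain, had 2.91 and 5.32, while B2m had a change of -0.19. These genes include near-identical copies, and at E15.5 H2-D1 had 13.0 and 14.6 FPKM.

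Immediate early genes lay mostly below the median of all genes, with 6 of 20 counted above it and a list median of -0.12. Fosl2 had 8.95 FPKM in dHET and 4.75 in dKO, and Fos had 20.4 and 15.4. Fosl2 reached the filter only in dHET, where it is high. Mitochondrial ribosomal protein genes had 50 of 72 counted members above that median, led by Mrpl34 with 64.7 and 143 FPKM. In the pentose phosphate pathway 8 of 9 lay above it, with Rpia at 3.77 and 6.26 FPKM. Rpia and G6pdx (3.67 and 5.53 FPKM) reached the filter only in dKO, where they are high.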
